A study of Mus musculus with 21 samples.

Results

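Bdnf, Ntf3, Ntrk2, Ntrk3, Ngfr and Sorcs3, which encode 2 secreted neurotrophins and 4 receptors for neurotrophins or their precursors, were taken by gene symbol from 4 tables of primary cortical neuron RNA-seq. All 6 were listed in each table, out of 22040 symbols in any table and 19399 in all 4. Neurons came from cortices of newborn (P0) mouse pups, either wildtype (WT) or Tg (hTau P301S), called Tau here, in which the prion promoter drives a cDNA of mutant human tau. All cultures had received AraC against dividing glia. The labels describe seeding with pre-formed fibrils, at 3 μg/mL on day 7 and followed by 18 more days, for transgenic neurons, while a passage of the paper can be read as seeding of both genotypes. If Tau cultures alone were seeded, transgene and fibrils cannot be told apart. For the last 24 h, AdipoRon, which activates adiponectin receptors, or DMSO alone was added. Its dose is 10 μM in the sample tags and the paper, whereas the deposited treatment text gives it in millimolar. The groups held 5 Tau DMSO, 5 Tau AdipoRon, 5 WT DMSO and 6 WT AdipoRon cultures, 21 in all. The reporting summary of the paper states that cells of the same animal went into each treatment, but which cultures share an animal was not used here.

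The values that could be used were 1 mean level per gene and table, in log2 CPM (read counts scaled to the size of the library). Each is the mean over 2 groups, so the tables give a DMSO pool of 10 cultures, an AdipoRon pool of 11, a Tau pool of 10 and a WT pool of 11. Levels of single cultures, their spread and their depth are unknown here. The means therefore carry no error, and no difference below was tested. A 2-fold difference (1 on the log2 scale) was used as a rule of size. How the tables were normalized is not given in the sources used here. They may have been scaled separately, and levels set across them rest on that scaling.

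Neurotrophins are secreted as precursors and cut to mature dimers. Mature BDNF binds TrkB (encoded by Ntrk2) and NT-3 binds TrkC (Ntrk3), receptor tyrosine kinases that support survival, dendrite growth and synaptic strength. The uncut precursors bind p75 (Ngfr) together with a receptor of the sortilin family, a pairing known for pruning and cell death. In cortex, Bdnf is the neurotrophin gene best known for following neuronal activity, through several alternative promoters.

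In the RefSeq tables of GRCm38.p6 (mm10, the build named in the labels and methods, while the paper's results name GRCm39), Bdnf lies at chr2:109674700-109727043. Ntf3 spans chr6:126101412-126166772 and Ngfr chr11:95568818-95587698. Ntrk2 spans chr13:58806472-59133970, Ntrk3 chr7:78179986-78581034 and Sorcs3 chr19:48206025-48805505. The promoter table held 7 windows for Bdnf, 2 for Ntf3 and 1 each for Ngfr, Ntrk2 and Sorcs3. Shown are the 250 bases before a start site for the 3 genes past the 2-fold rule between treatments. For Bdnf this is the third window (chr2:109692186-109692435, plus strand), for Ngfr chr11:95587699-95587948 (minus strand) and for Ntf3 the upstream window (chr6:126166745-126166994, minus strand). Capitals mark a cAMP response-like element, which only the third of the 7 Bdnf windows held.
Bdnf: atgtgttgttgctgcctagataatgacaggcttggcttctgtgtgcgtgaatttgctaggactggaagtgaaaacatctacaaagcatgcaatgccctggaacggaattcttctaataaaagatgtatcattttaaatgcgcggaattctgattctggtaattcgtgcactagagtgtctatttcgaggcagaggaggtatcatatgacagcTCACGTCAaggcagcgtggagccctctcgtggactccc
Ngfr: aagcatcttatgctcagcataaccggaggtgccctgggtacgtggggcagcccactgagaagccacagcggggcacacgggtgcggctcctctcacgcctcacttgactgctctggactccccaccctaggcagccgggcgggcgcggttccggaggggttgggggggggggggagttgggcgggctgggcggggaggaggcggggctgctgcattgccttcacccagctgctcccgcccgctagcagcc
Ntf3: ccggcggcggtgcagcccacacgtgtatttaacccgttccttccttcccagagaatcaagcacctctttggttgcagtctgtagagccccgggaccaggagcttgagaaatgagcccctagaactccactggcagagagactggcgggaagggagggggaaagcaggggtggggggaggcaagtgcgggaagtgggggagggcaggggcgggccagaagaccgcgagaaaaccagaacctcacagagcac

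These windows, 300 bases each when 50 bases after the start are included, were searched on both strands for TGACGTCA (the palindromic cAMP response element), TCACGTCA (a variant of it) and TGANTCA (the AP-1 motif). No matches overlapped in the windows of the 5 genes searched. Ntrk3 had no window in the table. The third Bdnf window held TCACGTCA, beginning 38 bases before the start, and the second held TGANTCA, 152 bases before its start. The windows of Ntf3, Ngfr, Ntrk2 and Sorcs3 held none of the 3. Of 32851 promoter windows in the table, 0.441% held TCACGTCA, 1.79% TGACGTCA and 7.81% TGANTCA. These shares are per window, and the 7 windows of Bdnf gave it more places for a match. A match is a description of the letters and was not tied to any value below.

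Bdnf was lower with AdipoRon. Its pooled mean was 5.47 log2 CPM in the DMSO pool and 3.85 in the AdipoRon pool, against 5.01 in the Tau pool and 4.67 in the WT pool. In linear units this is 44.3 CPM with DMSO, 14.4 CPM with AdipoRon, 32.3 CPM in Tau and 25.5 CPM in WT cultures. The AdipoRon minus DMSO difference was -1.62 log2 units (3.07-fold lower), at place 111 from the bottom of 19693 genes present in both tables. The Tau pool of Bdnf stood 0.34 log2 units above the WT pool. The WT pool holds 5 DMSO and 6 AdipoRon cultures and the Tau pool 5 of each, so this difference carries some of the treatment difference. All 3 excitatory markers were higher in the Tau pool as well, with a sum of 1990 CPM against 1610 CPM in the WT pool. So were all 5 neuron markers (log2 differences of 0.07 to 0.21), while 3 inhibitory markers ranged from -0.05 to 0.02. The part of these markers in the genotype difference of Bdnf was not tested.

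Ntf3, which encodes NT-3, went the other way. Its levels were low, at -0.97 log2 CPM (0.509 CPM) with DMSO and 0.24 log2 CPM (1.18 CPM) with AdipoRon. The difference of 1.21 log2 units (2.32-fold) put Ntf3 at place 82 from the top of the same genes. Between genotypes Ntf3 had -0.49 log2 CPM in the Tau pool and 0.01 in the WT pool, a difference of -0.50. At about 1 CPM or less, its log2 differences also depend on the prior count that edgeR adds.

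Ntf5, which encodes NT-4 and was not among the 6, differed less between treatments. It had 0.517 CPM with DMSO and 0.548 CPM with AdipoRon (0.08). Between genotypes Ntf5 had 0.681 CPM in the Tau and 0.406 CPM in the WT pool, a log2 difference of 0.75 on very low levels.

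**Figure D1:**
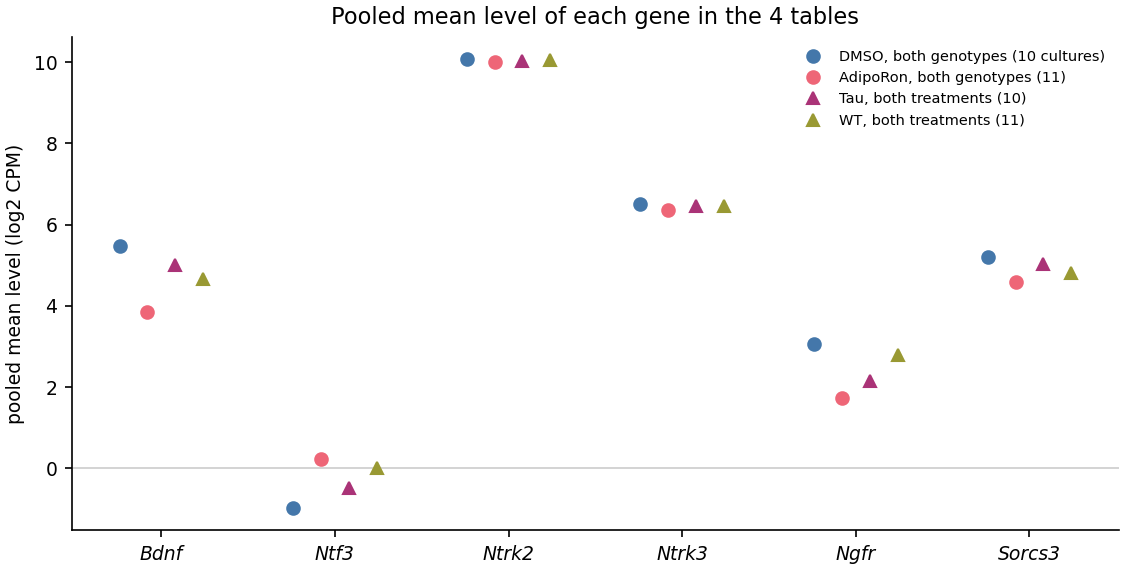
Pooled mean level (log2 CPM, y axis) of the 6 genes (x axis), where circles are the DMSO and AdipoRon pools and triangles the Tau and WT pools, each point being 1 mean with no error available. Bdnf and Ngfr lie lower in the AdipoRon than in the DMSO pool, Ntf3 lies higher, and the 4 points of Ntrk2 and of Ntrk3 lie within 0.14 of each other.

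The Trk receptors hardly differed between pools. Ntrk2 had 10.07 log2 CPM with DMSO and 10.00 with AdipoRon, and 10.02 in the Tau and 10.05 in the WT pool. Ntrk3 had 6.51 with DMSO and 6.37 with AdipoRon, and 6.45 in both genotype pools. The treatment differences were thus -0.07 for Ntrk2 and -0.14 for Ntrk3. The levels are summed over transcripts, so the kinase and truncated forms of TrkB and TrkC were not separated.

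Ngfr was the receptor gene with the widest spread over the pools. It had 3.06 log2 CPM (8.35 CPM) with DMSO, 1.73 (3.33 CPM) with AdipoRon, 2.15 (4.45 CPM) in Tau and 2.78 (6.86 CPM) in WT cultures. Its AdipoRon minus DMSO difference was -1.33 log2 units (2.51-fold lower), place 180 from the bottom of 19693 genes. Its Tau minus WT difference was -0.63 log2 units (1.54-fold lower), place 433 from the bottom of 19890 genes. In the Tau pool all 5 oligodendrocyte lineage markers (log2 differences of -0.26 to -0.84, sum 545 CPM against 802 CPM in the WT pool) and all 5 microglia markers (-0.42 to -1.41, sum 49.3 against 98.3 CPM) were lower as well, and their part in the genotype differences of Ngfr and Ntf3 was not tested. Fewer cells of a type and less RNA per cell cannot be told apart in these bulk samples.

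Sorcs3, a sortilin-related receptor gene, had 5.21 log2 CPM (37.1 CPM) with DMSO and 4.58 (23.8 CPM) with AdipoRon, a difference of -0.64 that is inside the 2-fold rule. In the Tau pool it had 5.04 and in the WT pool 4.80. Its relatives had differences between treatments of -0.32 (Sorl1), -0.29 (Sorcs1), 0.11 (Sort1, the sortilin gene itself) and 0.16 (Sorcs2). Between genotypes the 5 sortilin family genes ranged from -0.15 to 0.24.

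Of the 6 genes, 2 were lower in the AdipoRon pool by at least 2-fold (Bdnf and Ngfr) and 1 was higher (Ntf3). Among all 19693 genes, 1.75% were lower and 0.675% higher by this rule, and the median difference was 0.024. The median of the 6 genes was -0.39. Between genotypes, 0 of the 6 genes passed the rule in either direction, where 0.508% of 19890 genes were lower and 0.126% higher in the Tau pool. The 6 genes had a median genotype difference of -0.01, and the median over all genes was 0.002. Since the 6 were put together with results of these data known, the counts describe them and are no test.

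**Figure D2:**
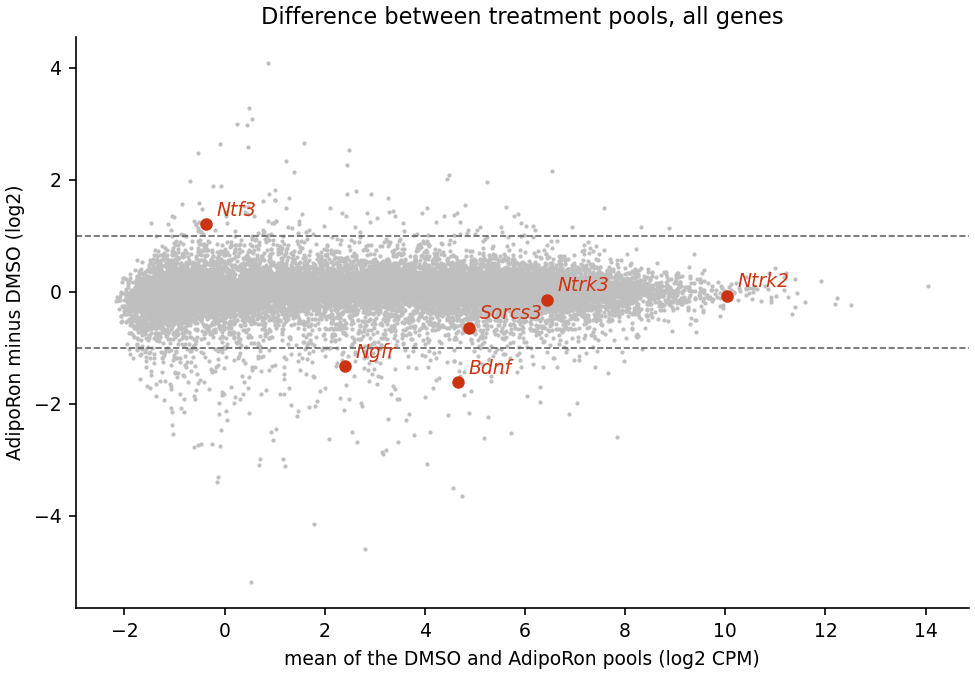
AdipoRon minus DMSO difference of pooled means (log2, y axis) against the mean of both pools (log2 CPM, x axis) for every gene in all 4 tables (grey) and the 6 genes (red), with dashed lines at 1 and -1. Bdnf (-1.62) and Ngfr (-1.33) lie below the lower line and Ntf3 (1.21) above the upper one at a low level, with Sorcs3, Ntrk3 and Ntrk2 between the lines.

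**Figure D3:**
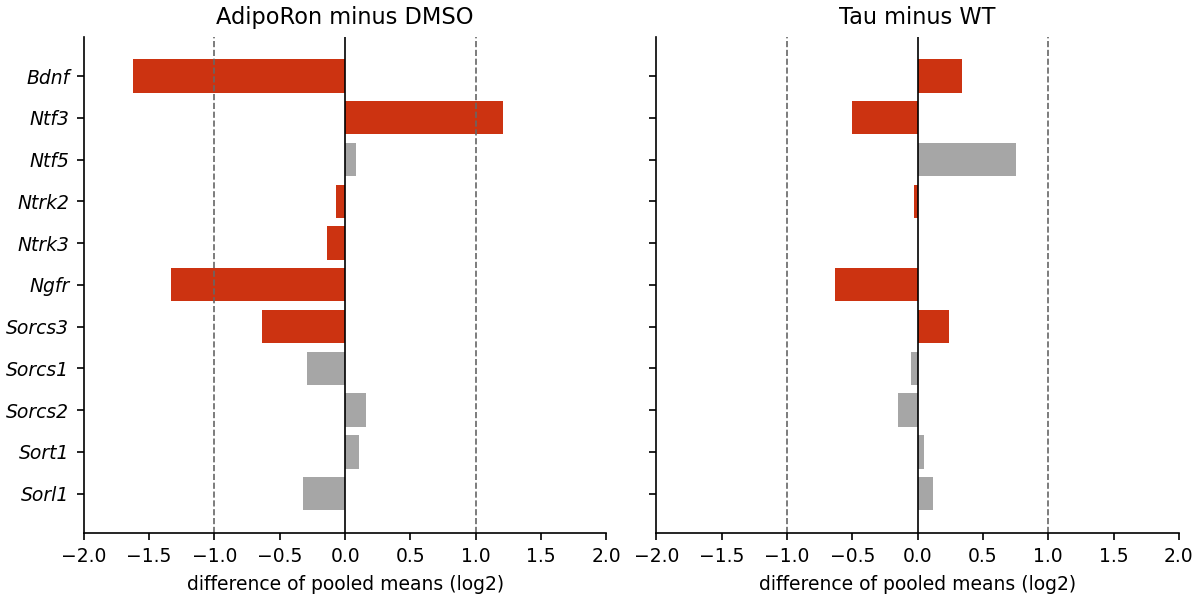
Differences of pooled means (log2, x axes) between treatments (left) and genotypes (right) for 11 ligand and receptor genes, the 6 chosen genes in red and related genes in grey, with dashed lines at 1 and -1. Only Bdnf, Ntf3 and Ngfr pass a line, all in the treatment panel, and Ntf5 has the largest genotype difference of these genes (0.75).

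Levels of different genes were set side by side only per length of exon. With the DMSO pool divided by the union of exons in GENCODE vM39, Ntrk2 had 35.9 CPM per kb, Bdnf 5.84, Sorcs3 5.18, Ntrk3 2.91, Ngfr 2.42 and Ntf3 0.294. In the AdipoRon pool the same scale gave 34.2 for Ntrk2, 3.35 for Sorcs3, 2.64 for Ntrk3, 1.90 for Bdnf, 0.961 for Ngfr and 0.680 for Ntf3. Bdnf thus stood after Ntrk2 among the 6 genes with DMSO and after Sorcs3 and Ntrk3 as well with AdipoRon. Dividing by the canonical transcript gave the same orders, with Ntrk2 at 119 CPM per kb and Bdnf at 10.8 with DMSO. Whether neighbours in these orders differ beyond culture spread is unknown here.

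The pools also limit what single groups can have been, if every culture counts equally in a mean. The DMSO and AdipoRon pools together hold the same 21 cultures as the Tau and WT pools, and both sums of CPM, weighted by cultures, matched over 19399 genes with an SD of 0.0049 on the log2 scale. Subtracting the Tau from the DMSO pool removes the shared Tau DMSO cultures and leaves WT DMSO against Tau AdipoRon, a pair that no table compares. By this route the WT DMSO mean exceeded the Tau AdipoRon mean by 24.0 CPM for Bdnf, 8.28 CPM for Sorcs3 and 7.80 CPM for Ngfr, while for Ntf3 the difference was -0.403 CPM.

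Since no mean can be under 0, each group also has a lowest and a highest possible level. For Bdnf the Tau DMSO mean lay between 32.6 and 64.5 CPM and the Tau AdipoRon mean between 0 and 32.0 CPM. Taken as exact means, the pools allowed Tau differences for Bdnf (AdipoRon minus DMSO) from -64.5 to -0.575 CPM. By the less favourable of the routes tried, the end nearest 0 was -0.156 CPM, a narrow margin beside a DMSO pool of 44.3 CPM. A small shift in scaling between the pools could turn that end positive. The sign of the Bdnf difference in Tau cultures is therefore not settled by these limits. In WT cultures the ranges were 24.0 to 56.0 CPM with DMSO and 0 to 26.7 CPM with AdipoRon, which overlap slightly. The ranges are linked, since a value chosen in any group fixes those of the others. The Bdnf difference of -0.575 CPM in Tau cultures goes with -56.0 CPM in WT cultures. The highest WT difference, 2.65 CPM, goes with -64.5 CPM in Tau cultures. With the pools taken as exact means, differences near 0 in both genotypes at once were thus not allowed. For Ngfr the WT DMSO mean was at least 7.80 CPM and the WT AdipoRon mean at most 6.09 CPM. The WT difference for Ngfr (AdipoRon minus DMSO) thus lay between -15.1 and -1.71 CPM. The Tau ranges of Ngfr overlapped (1.59 to 8.90 CPM with DMSO, 0 to 7.31 CPM with AdipoRon). For Ntf3 the WT AdipoRon mean lay between 0.985 and 1.83 CPM and the WT DMSO mean between 0 and 1.02 CPM. These ranges follow from the means alone and carry no replicate error.

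**Figure D4:**
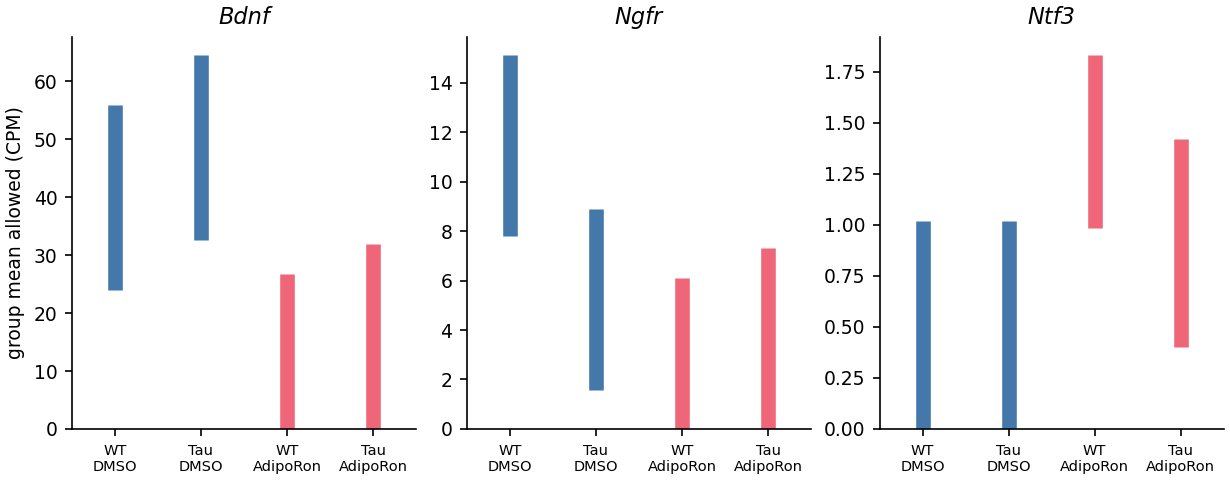
Range of group means (CPM, y axis, a scale for each gene) that the 4 pooled means allow for Bdnf, Ngfr and Ntf3 in each group (x axis), DMSO in blue and AdipoRon in red; bars are limits and not errors. With the pools taken as exact means, the Tau bars of Bdnf (by a narrow margin) and the WT bars of Ngfr do not overlap between treatments. The Tau bars of Ngfr and Ntf3 do. Bars of the same gene are linked, since a value chosen in any group fixes those of the others.

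Genes that process or release BDNF included some of the lowest treatment differences. Pcsk1, which encodes a prohormone convertase of secretory granules, had 47.7 CPM with DMSO and 5.68 CPM with AdipoRon (log2 difference -3.07, place 10 from the bottom). Cadps2, a gene for granule release, had 26.6 and 10.5 CPM (-1.34). At the other end of this list were Mmp3, a matrix protease gene (0.82), and Htt, whose product takes part in BDNF transport (0.28). Of the 13 genes with values, 2 were lower and 0 higher by 2-fold, against 1.75% lower and 0.675% higher over all genes, and the median was -0.01.

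Among 27 Trk adaptor and signalling genes, Shc3, a neuronal adaptor gene, was the only 1 past the rule between treatments, with 268 CPM in the DMSO and 105 CPM in the AdipoRon pool (-1.35). Slitrk5, which encodes a partner of TrkB, had -0.33. Plcg1 and Plcg2, phospholipase C genes, had 0.42 and 0.67, and the median of the list was 0.08. Over all genes 1.75% were lower and 0.675% higher, so 1 of 27 is no result about the list. Of 13 genes for partners of p75, 0 passed the rule and the median was 0.01. Lingo1 and Rtn4r, which encode members of the Nogo receptor complex, had -0.83 and -0.41, while Rtn4rl1, a relative of Rtn4r, had 0.52 and Zfp369 0.23.

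Of 24 genes for factors known to act on Bdnf, 2 were lower in the AdipoRon pool by 2-fold and 0 higher, with a median of 0.05, where 1.75% of all genes were lower and 0.675% higher. Npas4, an activity-dependent transcription factor gene, had 24.6 CPM with DMSO and 3.29 CPM with AdipoRon (-2.90). Camk4, which encodes a kinase upstream of CREB, had 156 and 40.0 CPM (-1.96). Crtc1, a CREB coactivator gene, and Mef2d, a transcription factor gene, had the highest differences of the list, at 0.59 and 0.33. In none of these 4 lists did a gene pass the rule between genotypes. Over all genes only 0.508% were lower and 0.126% higher in the Tau pool, so this is no result about the lists. Genotype differences of the listed genes ran from -0.85 (Shc4, an adaptor gene named after its value was seen) to 0.55 (Npas4), with Plcg2 at -0.72.

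The genes whose 4 pooled means, less their own average, lay nearest to those of Bdnf were Nr4a3, Sema3a, Palmd, Car10 and Car7. Their root mean square distances were 0.024 to 0.047 log2 units over the 4 pools, among 15440 genes at 0 log2 CPM or more in each pool. Their treatment differences ran from -1.51 (Car10) to -1.68 (Car7) and their genotype differences from 0.23 to 0.36. Nearest to Ntf3 were Fabp4, Ahnak2, Gpnmb, P2rx5 and H2-K2, at distances of 0.009 to 0.074. Their treatment differences ran from 1.03 (P2rx5) to 1.24 (Ahnak2) and their genotype differences from -0.37 to -0.61. A likeness over 4 pools that share cultures is a description only.

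Markers of neurons and of glia were both present in cultures labelled neuron. Map2 had 9.70 log2 CPM with DMSO and 9.50 with AdipoRon, and the astrocyte marker Gfap 10.70 and 11.04. All 5 neuron markers were lower in the AdipoRon pool, with log2 differences of -0.13 to -0.29. Of 5 astrocyte markers, 3 were higher with AdipoRon (Gfap, Aldh1l1 and Gja1) and 2 lower (Aqp4 and Slc1a3). Their sum was 3460 CPM with DMSO and 3810 CPM with AdipoRon, but without Gfap, a choice made after seeing the values, it was 1800 and 1700 CPM. The sums of 5 oligodendrocyte lineage markers were 712 and 657 CPM. The 5 microglia markers summed to 80.9 CPM with DMSO and 70.1 CPM with AdipoRon, or 46.0 and 44.9 CPM without Cx3cr1, with 3 lower and 2 (Tmem119 and Aif1) higher. With DMSO and with AdipoRon, 3 excitatory markers summed to 1830 and 1740 CPM, 3 inhibitory markers to 1240 and 1070 CPM, and 4 of 5 vascular and meningeal markers, those with values, to 49.2 and 52.0 CPM. The part of these markers in the treatment differences was not tested.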

How the data were processed

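RNA-seq had been made from polyadenylated RNA of 21 cultures, grouped here by the genotype and treatment in their titles. According to the methods, the authors trimmed reads, aligned them with STAR to mm10, quantified them with RSEM and compared groups with the GLM of edgeR, while the deposited tables are named after Rsubread. How genes were filtered is not given in the sources used here. The deposited log2 CPM column of each of the 4 tables is the authors' mean over both groups compared. The remaining columns (fold change, likelihood ratio, p-value, false discovery rate and a call) are the authors' own comparisons and were not used, so the 4 pairwise comparisons themselves are not described. With 1 mean per pool there was no test, SD or n, and depth per culture is unknown.

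Differences of pooled means (AdipoRon minus DMSO, Tau minus WT) were computed with pandas 2.3.3 in Python 3.11.15 over all shared genes, with a rule of 1 on the log2 scale. Group limits follow from the pooled CPM, 5 or 6 cultures per group and no mean below 0. Their calculation was checked on simulated pools that were exact weighted means. That check cannot show how closely the deposited values follow such means. The AdipoRon pool holds 5 Tau and 6 WT cultures, the DMSO pool 5 of each. In the same way the WT pool holds 5 DMSO and 6 AdipoRon cultures and the Tau pool 5 of each. Each difference of pools thus carries some of the other contrast. Promoters and positions are from RefSeq tables of GRCm38.p6, exon lengths from GENCODE vM39. Promoter windows were found for 5 of the 6 genes. Alternatives were other scalings, a 0.5 rule, minimum levels of 0 and 4 log2 CPM and genes in all 4 tables. Genes named outside the 6 are other ligands and receptors (some genes of this rule are not reported here), the 2 highest and 2 lowest treatment differences of each list at 0 log2 CPM or more, the 5 nearest patterns to Bdnf and Ntf3, and cell type markers. The members and lists were chosen with earlier results of these data known.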

Additional observations from a re-analysis of the deposited data

How the results depend on the processing

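Subtracting the median over all genes, or over genes above 4 log2 CPM, moved treatment differences of the 6 genes by 0.024 and 0.029, and rescaling to equal totals by less, and Bdnf, Ngfr and Ntf3 stayed past the 2-fold rule under each scaling. With a rule of 0.5, Sorcs3 joined the lower genes between treatments, where 1259 of 19693 genes were lower and 10.8% passed in either direction. Ngfr passed as lower between genotypes, where 699 of 19890 genes were lower and 7.73% passed in either direction. A minimum of 0 log2 CPM in both tables leaves out Ntf3, and between treatments a minimum of 4 leaves out Bdnf, Ngfr and Ntf3. Of the remaining 3 genes 0 then passed, where 0.824% of all genes at that minimum did. Over all genes, 477 passed the rule between treatments, 2118 at a rule of 0.5, 269 with the minimum of 0 and 78 with the minimum of 4. Between genotypes 126 passed, 1538 at 0.5, 83 with the minimum of 0 and 13 with the minimum of 4. No paired analysis was possible because the columns used hold no values per culture, and for the same reason no culture could be left out.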
